A study of Mus musculus with 2 samples.

Results

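Plasma cells of mouse liver were examined in single-cell transcriptomes of liver non-parenchymal cells, the cells that remain after hepatocytes are spun out. They were selected on transcripts counted as UMIs (unique molecular identifiers, 1 per captured RNA molecule): at least 20 UMIs of Jchain, at least 5 of Mzb1, none of the plasmacytoid dendritic cell gene Siglech, under 25 UMIs per 10000 of the endothelial genes Kdr, Ptprb and Flt4 together, and at most 2 of the stellate cell genes Lrat and Reln. The rule kept 105 cells of 13603 that passed quality limits (under 10% mitochondrial UMIs and over 200 genes). Of these, 92 came from the normal liver, which was 1.23% of its 7471 cells (exact 95% binomial interval 0.994 to 1.51%). The other 13 came from the fibrotic liver, which was 0.212% of its 6132 cells (0.113 to 0.362%). With at least 10 Mzb1 UMIs the shares were 1.08% and 0.114% (7 fibrosis cells), and under 5% mitochondrial UMIs 2.75% and 0.587%. No fibrosis cell was left without those over 10 per 10000 of macrophage, T and NK or endothelial genes, where the normal share was 0.723%. Every fibrosis plasma cell held at least 12.3 per 10000 of the macrophage genes, so this limit could leave none and does not check the share.

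The study compared the livers of C57BL/6 mice, both male and 8 weeks old. The fibrosis mouse received carbon tetrachloride, a hepatotoxin given as 15% in olive oil, at 0.6 µl per g body weight in 2 injections a week for 6 weeks, and the normal mouse received the oil. Livers were digested with collagenase in situ 48 h after the last injection, and the suspensions were sequenced with 10x Chromium 3′ chemistry. Each condition was 1 library of 1 mouse. Fibrosis, animal, dissociation and library therefore cannot be told apart, no test was possible, and every interval below covers counting error only. The libraries held 44062632 and 53288463 UMIs in 8130 and 6437 cells, 15 cell barcodes occurred in both, and none of these was a plasma cell.

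Plasma cells are the antibody factories into which activated B cells mature. They give up the B cell programme under the regulators Prdm1 and Xbp1 and expand the endoplasmic reticulum, where heavy and light chains are threaded through the membrane, folded, glycosylated and checked before they leave through the Golgi. IgA plasma cells mostly arise in response to gut antigens and join their IgA through the J chain encoded by Jchain, whereas newly formed plasmablasts may still divide. Liver receives blood from the gut through the portal vein and holds plasma cells of several isotypes.

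Xbp1 acts on a pair of known DNA elements, the ER stress response element (ERSE, searched as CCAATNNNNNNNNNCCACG) and the unfolded protein response element (UPRE, searched as TGACGTGG), so the promoters of the secretory genes described below were read for these letters. Both strands of the 250 bases before each RefSeq start (GRCm38.p6) were searched. ERSE occurred in 9 of the 69 genes with a promoter (13.0%) among 85 secretory genes, against 35 of 27025 genes overall (0.130%). UPRE occurred in 5 of the 69 (7.25%), against 163 overall (0.603%). No secretory gene held both. Of the folding genes 7 of 20 held an ERSE (35%), and of the degradation genes 2 of 11 (18.2%). The following stretches, 5′ to 3′ on the strand of the gene with the matched letters in capitals, show the element in genes whose levels are given below.
Hsp90b1 (chaperone; chr10:86705513-86705571, minus strand): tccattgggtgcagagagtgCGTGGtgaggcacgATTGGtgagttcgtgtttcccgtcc
Calr (lectin chaperone; chr8:84847055-84847113, minus strand): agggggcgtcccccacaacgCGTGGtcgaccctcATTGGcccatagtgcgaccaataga
Canx (lectin chaperone; chr11:50325780-50325838, minus strand): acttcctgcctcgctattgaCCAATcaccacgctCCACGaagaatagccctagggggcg
Pdia6 (disulfide isomerase; chr12:17266471-17266529, plus strand): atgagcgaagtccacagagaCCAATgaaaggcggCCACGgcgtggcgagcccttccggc
Dnajc3 (co-chaperone; chr14:118937807-118937865, plus strand): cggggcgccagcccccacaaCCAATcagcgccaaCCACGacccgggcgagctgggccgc
Creld2 (folding factor; chr15:88819500-88819558, plus strand): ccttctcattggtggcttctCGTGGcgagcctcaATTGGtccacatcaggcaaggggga
Derl3 (degradation channel; chr10:75893222-75893280, plus strand): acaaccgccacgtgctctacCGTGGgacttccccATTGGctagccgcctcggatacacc
Syvn1 (ubiquitin ligase; chr19:6046512-6046570, plus strand): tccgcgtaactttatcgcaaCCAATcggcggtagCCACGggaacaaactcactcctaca
Txndc5 (disulfide isomerase, UPRE; chr13:38528025-38528072, minus strand): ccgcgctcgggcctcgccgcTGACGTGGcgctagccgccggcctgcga
Ube2j1 (ubiquitin-conjugating enzyme, UPRE; chr4:33031292-33031339, plus strand): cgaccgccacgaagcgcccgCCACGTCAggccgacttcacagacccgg
The first 8 hold ERSE, which in Calr, Creld2, Derl3 and Hsp90b1 reads on the opposite strand. The matches ended between 25 bases (Syvn1) and 143 bases (Calr) before the start. The first 8 stretches overlapped no annotated exon, and those of Txndc5 and Ube2j1 lay in exons of the neighbouring transcripts Gm31834 and 4933421O10Rik. The ERSE stretch of Hspa5, whose level is also given below, overlapped an exon of Hspa5 itself and is not printed. A match describes these letters and is not evidence of binding.

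The label was checked against markers that the rule did not use. Values outside immunoglobulin genes are given throughout as UMIs per 10000 UMIs that are neither immunoglobulin nor Jchain, summed over cells, because immunoglobulin RNA takes much of a plasma cell. Derl3 stood at 7.15 per 10000 (95% Poisson interval 6.60 to 7.74) in normal plasma cells and 5.13 (4.0 to 6.48) in fibrosis, with at least 1 UMI in 93.5% and 100% of cells. In B-gate cells, taken as cells with Cd79a or Cd79b and Ms4a1 but no Cd3 UMIs (451 normal, 266 fibrosis), it was 0.0438 and 0.0461. Sdc1, the surface protein CD138, was found in 92.4% and 92.3% of plasma cells at 3.88 and 3.67 per 10000. In T-gate cells (Cd3 UMIs, no B cell genes, 575 normal and 184 fibrosis) it was found in 16.9% and 5.43% at 0.452 and 0.206 per 10000, with fewer UMIs per cell (median 4126 and 3386 against 15008 and 20018). Tnfrsf17, the survival receptor BCMA, was found in 78.3% and 53.8% of plasma cells, and in 0.348% and 0% of T-gate cells.

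Relative to B-gate cells, 7 of 8 plasma cell regulators in normal and 6 of 8 in fibrosis were at least 2-fold higher. Xbp1 was at 24.5 and 30.4 per 10000 against 1.38 and 2.54 in B-gate cells, and Prdm1 at 2.29 and 3.45 against 0.0375 and 0.196. Zbtb20 was within 2-fold of B-gate cells in both libraries, at 4.44 against 3.90 and 5.13 against 4.80, and the coactivator Pou2af1 in fibrosis, at 4.47 against 4.24. Pax5, the factor that holds B cell identity, was at 0.023 in normal plasma cells and at 0 in fibrosis, against 5.11 and 4.85. All 17 B cell identity genes and all 9 MHC class II genes compared were at least 2-fold lower in plasma cells of both libraries. Of the secretory genes 69 of 78 in normal and 56 of 75 in fibrosis were at least 2-fold higher, and none was 2-fold lower. Among all genes compared, 17.0% were 2-fold higher and 21.8% lower in normal, and 13.4% higher and 15% lower in fibrosis. The cells were selected on this difference, so these counts describe the label and carry no test.

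The values that selected the cells had a wide gap for Jchain and none for Mzb1. Jchain began at 72 UMIs in normal members and 90 in fibrosis, and cells refused on Jchain alone held at most 3 and 1. Mzb1 began at its limit of 5 in both libraries, and the cells refused on Mzb1 alone (8 normal, 6 fibrosis) held at most 4, with the 3 highest at 4, 4 and 3 in normal and at 4, 4 and 1 in fibrosis. The other limits removed 18 normal cells (11 on Lrat and Reln, 5 on Siglech, 2 on endothelial genes) and 1 fibrosis cell.

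The fibrosis set held 2 members that carried macrophage RNA. One (14249 UMIs) had 266 UMIs per 10000 of 12 macrophage genes, among them 57 UMIs of the complement gene C1qa. The other (27779 UMIs) had 177 per 10000, with 14 UMIs of C1qa. The highest value among the remaining fibrosis members was 33.5, and among normal members 16.5. Both lacked Tnfrsf17, and the first also lacked Sdc1 and held 18 UMIs of the MHC class II gene H2-Aa. The first held 7 UMIs of Derl3, and the second held 1 of Derl3, 5 of Sdc1 and 0 of H2-Aa. Without them Sdc1 was found in 100% and Tnfrsf17 in 63.6% of fibrosis plasma cells. How much of their RNA came from plasma cells was not tested.

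IgA led in most plasma cells of both livers. Each cell was assigned the heavy-chain constant gene with most UMIs, and this gene held between 88.6 and 100% of the cell's heavy-chain UMIs. Igha, the constant gene of IgA (chr12:113254830-113260236, minus strand, GRCm38), led in 67 of 92 normal cells (72.8%, exact interval 62.6 to 81.6%) and in 12 of 13 fibrosis cells (92.3%, 64.0 to 99.8%). The intervals overlapped. An IgG gene led in 22 normal cells (23.9%, 15.6 to 33.9%), of which Ighg1 led 8, Ighg2b 8 and Ighg2c 6. Ighm, the gene of IgM, led in 3 normal cells (3.26%), and Ighd, Ighg3 and Ighe in none. The single fibrosis cell not led by Igha was led by Ighg2b and was 1 of the cells with macrophage RNA, so that all 11 remaining fibrosis cells were led by Igha (71.5 to 100%). Ighg1 (chr12:113325240-113330523), Ighg2b (chr12:113302965-113307933) and Ighg2c (chr12:113285325-113288932) lie side by side and share sequence, so reads between them may be split, and IgG is mostly pooled below.

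**Figure D1:**
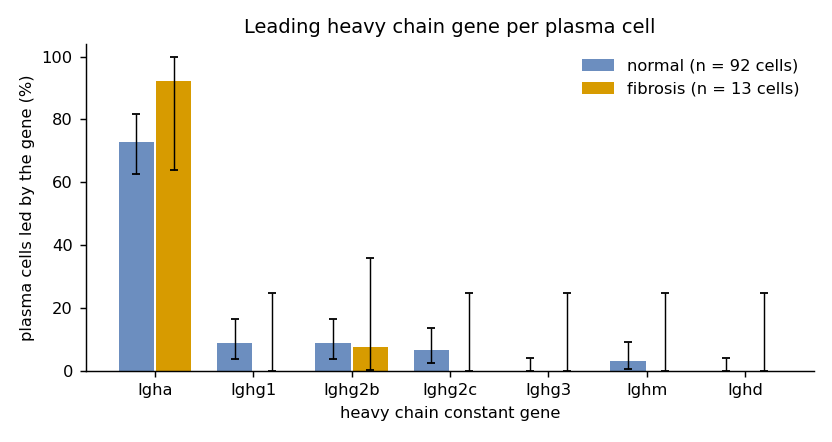
Share of plasma cells (percent) led by each heavy-chain constant gene in the normal (92 cells) and fibrosis (13 cells) library, with exact 95% binomial intervals as error bars. IgA leads in 67 normal and 12 fibrosis cells, and IgG genes lead in 22 normal cells and 1 fibrosis cell.

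More heavy-chain UMIs were counted per IgA-led cell in fibrosis. IgA-led cells held 532 to 4800 heavy-chain UMIs in normal liver, with a median of 1467. In fibrosis they held 923 to 6790, with a median of 5324, and the ranges overlapped. The lowest of these was a macrophage-RNA cell, and the next held 1550. Fibrosis plasma cells also held more UMIs in all. IgG-led normal cells had a median of 1856. Summed over all plasma cells, whichever heavy chain led, and counted per 10000 of all UMIs, Igha was at 865 (860 to 870) in normal and 2091 (2074 to 2109) in fibrosis. In T-gate cells, which should lack it, Igha stood at 2.88 and 4.33 per 10000, and 71.8% and 87.0% of those cells had at least 1 UMI.

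Nearly every plasma cell used a kappa light chain. Igkc (chr6:70726435-70726966, plus strand) led in 90 of 92 normal cells (97.8%) and in 13 of 13 fibrosis cells. The 2 remaining normal cells were led by lambda constant genes with 1461 and 1640 UMIs and had only 5 to 7 kappa UMIs. Another 2 normal cells held 500 or more UMIs of both chains.

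Immunoglobulin and Jchain together took 41.9% of the UMIs of a median normal plasma cell (range 8.69 to 70.7%) and 57.7% in fibrosis (10.4 to 67.0%). Without the cells that carried macrophage RNA, the fibrosis median was 62.8%. Within normal liver, IgA-led and IgG-led cells had medians of 41.1 and 42.1%. Dividing cells stood apart, as described with the cell cycle below. Among IgA-led cells outside the cycle the medians were 47.4% in normal (52 cells) and 63.0% in fibrosis (10 cells).

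**Figure D2:**
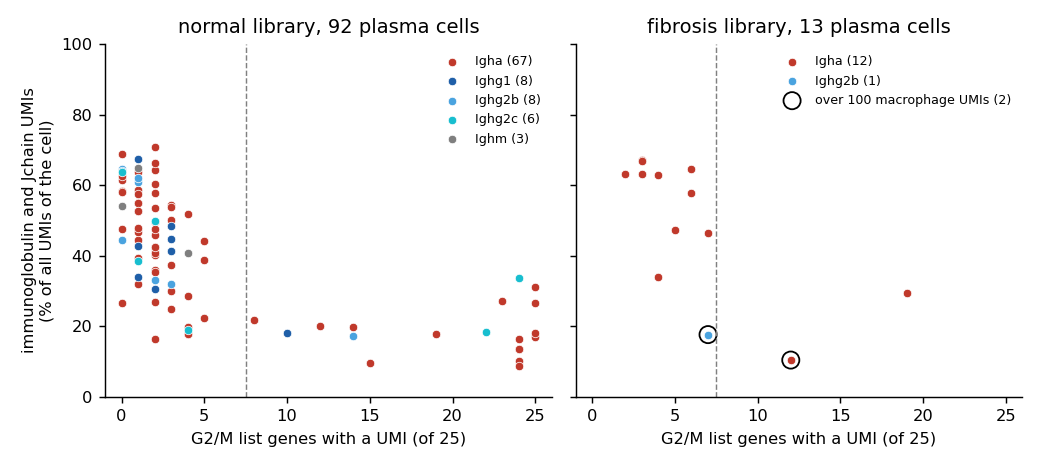
Share of each plasma cell's UMIs that come from immunoglobulin genes and Jchain (percent), plotted against its number of detected G2/M genes (of 25), 1 point per cell coloured by leading heavy chain; the dashed line marks the limit of 8 genes and circles mark the 2 cells with macrophage RNA. Cells with many G2/M genes have a low share, and most fibrosis cells outside the cycle are among the higher shares.

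Variable genes differed from cell to cell. With at least 3 UMIs and over 50% of its kind required of a leading gene, 77 normal cells had a heavy variable gene and used 40 distinct ones, and 85 had a light variable gene and used 33. Ighv1-81 led in 12 of the 77 and Ighv1-9 in 7, and in fibrosis Ighv1-81 led in 2 of 11. Of 73 normal cells with both genes assigned, 25 shared their pair with another cell, in 10 pairs. The most frequent pair, Ighv3-4 with Igkv8-30, occurred in 5 cells, all led by Igha and none dividing. Ighv1-81 with Igkv1-117 occurred in 4 cells, 3 led by Igha and 1 by Ighg2c. Ighv1-58 with Iglv1 occurred in 2 cells, both led by Ighg2b. In fibrosis all 9 assigned pairs were distinct, and 2 pairs occurred in both libraries. When 10 UMIs were required, 30 normal cells kept a pair and only 4 shared one. The joining segments were not read from these 3′ counts, so a shared pair does not show descent from the same B cell, and of 8 normal cells led by an Iglv gene 6 had a kappa constant chain.

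Within normal liver a minority of genes differed 2-fold between the isotypes. IgA-led cells outside the cycle (52) were compared with IgG-led cells outside the cycle (18), and of 1960 genes 8.47% were at least 2-fold higher in IgA-led and 3.52% at least 2-fold higher in IgG-led cells. Both sets came from the same library. The named genes of this comparison are those with the most extreme ratios among genes found in enough cells, and genes of the lists.

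Slpi, a secreted inhibitor of leukocyte proteases (chr2:164354070-164389095, minus strand), separated them most by amount. In IgG-led cells it stood at 149 per 10000 (143 to 156) and was found in 18 of 18 cells, with a lowest, median and highest value of 0.884, 107 and 464. In IgA-led cells it stood at 11.3 (10.3 to 12.4) and was found in 23 of 52, with a median of 0 and a highest value of 109. The ranges overlapped, and with the cell holding most UMIs left out of each set the levels were 120 and 9.44, a 12.7-fold difference. It was highest in Ighg1-led cells at 229, against 86.7 in Ighg2b-led and 81.0 in Ighg2c-led cells. After thinning to an equal number of UMIs, 88.9% of IgG-led, 23.1% of IgA-led and 2.09% of T-gate cells had a UMI. IgA-led fibrosis cells had 1.99 per 10000.

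Ly6c2, a surface protein of the Ly6 family (chr15:75108158-75111970, minus strand), was at 77.2 per 10000 in IgG-led and 3.34 in IgA-led cells. A single IgG-led cell held 71.4% of its UMIs, and without the top cell of each set the values were 24.8 and 2.90, an 8.56-fold difference. It was found in 14 of 18 and 25 of 52 cells. The family member Ly6d was at 11.6 and 3.79. Pld4, an endolysosomal nuclease, was at 2.27 in IgG-led cells (15 of 18 cells) and 0.248 in IgA-led cells (8 of 52).

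Receptors that guide cells to tissues were read next. Ccr10, a chemokine receptor of mucosal IgA cells (chr11:101172997-101175443, minus strand), was at 3.17 per 10000 (2.64 to 3.77) in IgA-led and 0.804 (0.402 to 1.44) in IgG-led cells. It was found in 42 of 52 and 6 of 18 cells, and after thinning in 40.4% and 0% of them. All 10 IgA-led fibrosis cells outside the cycle held it, at 3.28 per 10000, while T-gate cells had 0.0471 in normal liver and the IgM-led cells none. Itgb7, the integrin chain for gut homing (chr15:102215995-102231944, minus strand), was at 4.70 and 1.83. T-gate cells had 2.37 of Itgb7, between both sets.

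Of 10 homing genes over the floor of 1 per 10000, 4 were 2-fold higher in IgA-led cells (Ccr10, Itgb7, Klf2 and Cd9) and 2 lower (Ly6c2 and Ly6d), beside 8.47% and 3.52% of all genes. Of 13 survival genes, 3 were higher in IgA-led cells and 2 lower, so that most did not differ 2-fold. The higher ones were the receptors Tnfrsf17 (4.85 against 1.97; chr16:11313812-11320074, plus strand) and Tnfrsf13b (3.49 against 1.54), and the death inhibitor Bcl2 (1.06 against 0.146). The lower ones were the BAFF receptor gene Tnfrsf13c (0.421 against 1.32) and the death promoter Bcl2l11 (0.545 against 1.24). Runx2, a transcription factor, was at 1.71 in IgA-led (30 of 52 cells) and 0.146 in IgG-led cells (2 of 18), and at 1.88 in IgA-led fibrosis cells. Itgam, which encodes CD11b, was at 1.73 and 0.293 in normal cells, and the 10 IgA-led fibrosis cells outside the cycle had no UMI of it.

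The secretory genes summed to 752 per 10000 in IgA-led and 836 in IgG-led cells. Of 79 secretory genes, 3 were 2-fold higher in IgA-led cells (Txndc5, Ero1l and Edem3) and 2 lower (Prdx4 and Fkbp11), or 3.80% and 2.53% beside 8.47% and 3.52% of all genes. Their median log2 ratio was −0.04 beside 0.13 for all genes. Txndc5 was at 41.2 per 10000 in IgA-led and 17.6 in IgG-led cells. Cd74, the MHC class II chaperone and the most abundant B cell identity gene that differed, was at 26 and 66, and Ms4a1, which encodes CD20, was at 0.272 and 1.24. None of the 8 plasma cell regulators and none of 12 hepatocyte genes differed 2-fold, and the summed hepatocyte level was 160 and 158 per 10000.

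**Figure D3:**
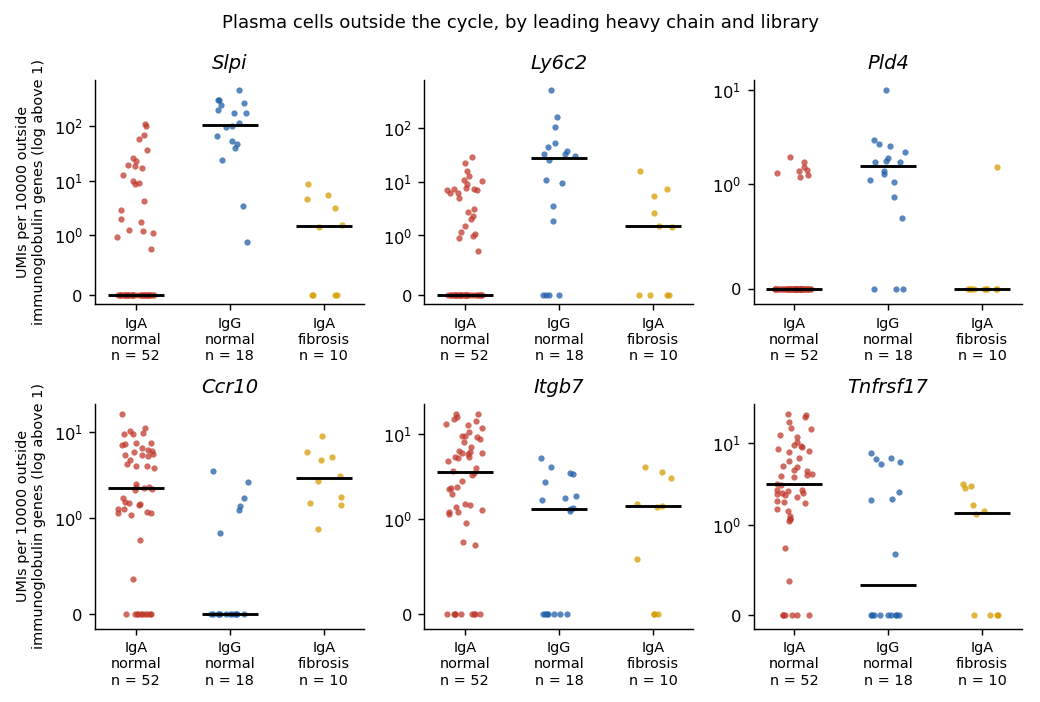
UMIs per 10000 non-immunoglobulin UMIs in each plasma cell outside the cycle for Slpi, Ly6c2, Pld4, Ccr10, Itgb7 and Tnfrsf17, in normal IgA-led (52), normal IgG-led (18) and fibrosis IgA-led (10) cells, 1 point per cell on an axis that is logarithmic above 1, with lines at the medians. The IgG-led cells hold most of Slpi, Ly6c2 and Pld4, and Ccr10 is found in 42, 6 and 10 of these cells.

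Secretory genes were compared between the livers next. Over all 2369 genes above the floor, 16.5% were at least 2-fold higher and 11.0% at least 2-fold lower in fibrosis plasma cells. This balance turned when all UMIs, immunoglobulin included, were the denominator (102 higher and 232 lower of 1175 genes, median log2 ratio −0.38) and at a floor of 3 per 10000 (77 and 86 of 579). Of the 80 secretory genes above the floor first given, none was 2-fold higher and 16 were 2-fold lower (20%), and the median log2 ratio was −0.52 beside 0.12 for all genes. The list summed to 745 per 10000 in normal and 555 in fibrosis, a ratio of 0.746 (0.728 to 0.764). Single cells overlapped, from 197 to 2024 with a median of 711 in normal and from 235 to 1218 with a median of 625 in fibrosis.

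Leaving out the cells with macrophage RNA brought the sum to 632 and the ratio to 0.849. Then 1 secretory gene was higher and 16 lower, with a median log2 ratio of −0.38 beside 0.14, where 16.3% of 2339 genes were higher and 11.6% lower. Among IgA-led cells outside the cycle, 1 gene was higher and 13 lower and the ratio was 0.885 (665 against 752), where 17.1% of 2386 genes were higher and 10.7% lower. Of these 10 fibrosis cells, 1 held 157 per 10000 of endothelial genes and the lowest secretory level (313). It also had the most UMIs outside immunoglobulin (16991), so it weighed most in the sums of 632 and 665. The ratios without this cell were not computed. In T-gate cells 3 of 48 secretory genes were higher and 1 was lower, where 9.16% of 2391 genes were higher and 6.57% lower. Over all UMIs 26 of 72 secretory genes were lower and the ratio was 0.621, beside the lower median of all genes on that scale.

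The steps of the pathway were then read one by one, with no test between them. The values in the rest of the secretory account compare the 11 fibrosis cells without macrophage RNA with the 92 normal cells. Isotype and cycle were not matched, since Igha led all 11, while the 92 included 22 IgG-led and 19 dividing cells. Within normal liver Prdx4 and Fkbp11 were lower in IgA-led than IgG-led cells, and Herpud1 was lower in dividing cells. Among translocation genes, which carry the nascent chain into the endoplasmic reticulum, 4 of 18 were 2-fold lower (Ssr2, Ssr4, Sec61g and Sec11a), beside 11.6% of all genes. Ssr2, a subunit of the translocon-associated complex, was at 1.39 per 10000 against 6.42 (ratio 0.216, 0.117 to 0.366), and in T-gate cells at 0.446 against 0.601. Ssr4 was at 9.43 against 19.5, and the channel subunit Sec61g at 7.84 against 15.7.

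Among folding genes 7 of 23 were lower (Sdf2l1, Prdx4, Fkbp11, Ppib, Manf, Fkbp2 and Pdia3), beside 11.6% of all genes. Sdf2l1, a partner of the chaperone BiP (chr16:17130138-17132383, minus strand), was at 1.99 (1.21 to 3.07) against 8.46 (7.86 to 9.10), a ratio of 0.235 (0.142 to 0.365), while in T-gate cells it was at 0.366 against 0.38. The prolyl isomerase Ppib was at 6.75 against 15.9, and Manf, a factor secreted under ER stress, at 10.7 against 23.9. Of 10 glycosylation genes, 3 subunits of oligosaccharyltransferase were lower, with Tmem258 at 1.89 against 5.76, Krtcap2 at 3.97 against 11.6 and Ddost at 2.88 against 6.09. Krtcap2 was lower in T-gate cells too, at 1.02 against 2.13, and so was Prdx4, at 0.16 against 0.398. Of 17 genes of transport to the Golgi 2 were lower (Sar1b and Golgb1), a share of 11.8%.

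The most abundant chaperones lay within 2-fold. Hspa5, which encodes BiP (chr2:34771970-34777547, plus strand), was at 53.9 (49.5 to 58.6) against 53.7 (52.2 to 55.3), a ratio of 1.0, and Hsp90b1 at 138 against 128. Of the genes whose promoter stretches are printed above, none lay 2-fold apart. Calr was at 20.4 against 23.5, Canx at 9.73 against 7.15, Pdia6 at 12.9 against 14.4, Dnajc3 at 11.1 against 8.47 and Creld2 at 8.64 against 7.65. The degradation genes Derl3 and Syvn1 were at 6.15 against 7.15 and 4.07 against 3.09. The UPRE genes Txndc5 and Ube2j1 were at 37.6 against 31.3 and 6.35 against 4.31.

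None of 12 genes of ER-associated degradation, which clears misfolded chains, was 2-fold lower. Their median log2 ratio was −0.22 beside 0.14 for all genes, while their sum was 82.5 in fibrosis and 65.5 in normal, a higher sum that Herpud1 and Edem1 carried. Herpud1, a stress-induced part of the degradation complex, was the 1 secretory gene that was higher without the macrophage-RNA cells, at 20.8 against 9.31 (2.24-fold, 1.91 to 2.61), with 1.52 against 1.63 in T-gate cells. Edem1, which trims the sugars of misfolded chains, was at 24.4 against 15.9 (1.54-fold), with the same 1.53-fold ratio in T-gate cells. Of 4 stress response genes none was 2-fold apart with all members, 2 were higher without the macrophage-RNA cells, and 1 of 5 was higher among IgA-led cells outside the cycle, where 16.5%, 16.3% and 17.1% of all genes were higher. Without the macrophage-RNA cells Ppp1r15a was at 3.57 against 1.66, and Ddit3 at 1.09 against 0.451 on 11 and 39 UMIs. None of 8 plasma cell regulators differed 2-fold, with Xbp1 at 37.3 against 24.5 (1.52-fold, 1.36 to 1.70), Prdm1 at 4.37 against 2.29 (1.91-fold, 1.34 to 2.65) and Irf4 at 3.47 against 3.63.

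**Figure D4:**
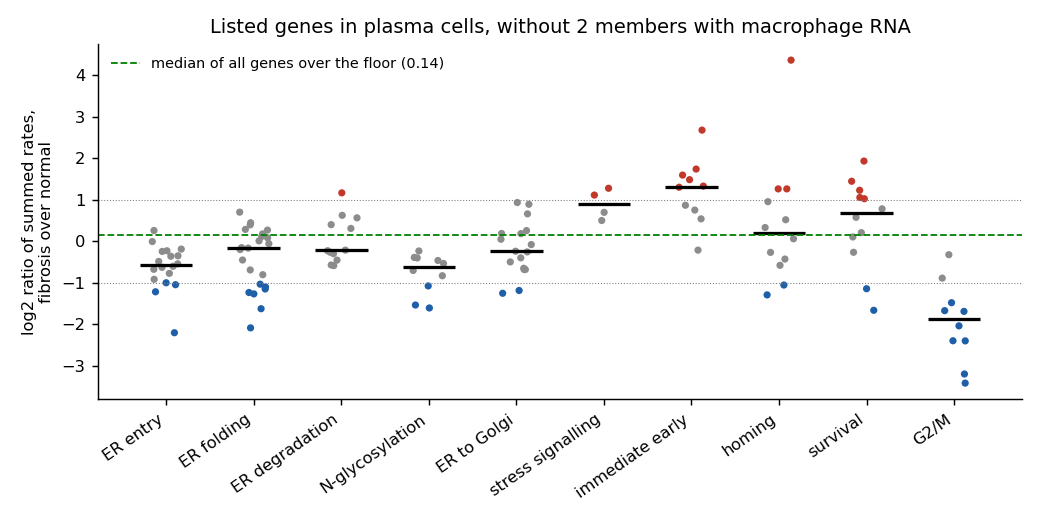
log2 ratio of UMIs per 10000 in fibrosis (11 plasma cells without macrophage RNA) over normal (92 cells), 1 point per gene over 1 per 10000, by gene list, with lines at list medians and colour past 2-fold. Secretory genes lie mostly below the median of all genes (0.14), immediate early genes above it and G2/M genes below it.

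Slpi was the most abundant of the genes singled out by ratio as lower in fibrosis, at 1.32 per 10000 (18 UMIs) against 30.8 (2662 UMIs). Among IgA-led cells outside the cycle the sum was 1.99 (1.16 to 3.19) against 11.3, but a minority of normal cells carried it: the median was 1.46 in fibrosis (6 of 10 cells above 0) and 0 in normal (23 of 52). Other genes that were lower among IgA-led cells outside the cycle were Pycard, an inflammasome adaptor (2.58 against 17.2), Crip1, a small LIM-domain protein (5.86 against 31.3), and Plac8 (0.469 against 4.48). Fabp1 (3 against 953 UMIs) and Hamp (1 against 171 UMIs) are hepatocyte genes. All 12 hepatocyte genes of the list were 2-fold lower in fibrosis plasma cells, at a summed 21.2 against 134 per 10000, and all 12 were lower in T-gate cells, at 28.5 against 246, beside 11.0% and 6.57% of all genes.

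Immediate early genes, transcription factors and regulators that cells switch on shortly after stimulation, were higher in fibrosis plasma cells. Of 11 genes 7 were 2-fold higher and none lower, and without the macrophage-RNA cells 6 of 10, where 16.5% and 16.3% of all genes were higher. Dusp1, a phosphatase of MAP kinases, was at 15.1 per 10000 against 2.36, and Fosb at 10.9 against 3.28. Fos and Junb were at 16.5 against 5.90 and 10.2 against 3.39. The list ranged from 9.56 to 211 with a median of 47.7 in normal cells and from 37.0 to 234 with a median of 125 in fibrosis, so the cells overlapped. In T-gate cells 1 of 11 was higher, beside 9.16% of all genes, and the list summed to 81.8 against 75.2. In B-gate cells the list summed to 101 against 82.6, beside 111 against 50.4 in plasma cells. Normal plasma cells thus lay below both other sets. Of 8 heat shock genes 2 were 2-fold lower, beside 11.0% of all genes, with Hspa1a at 0.293 against 1.22 and Hspa1b at 0.513 against 2.04, while the list summed to 48.2 against 46.5. In T-gate cells 3 of 10 heat shock genes were lower, beside 6.57% of all genes.

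Without the macrophage-RNA cells 5 of 12 survival genes were 2-fold higher and 2 lower in fibrosis, and 3 of 12 homing genes were higher and 2 lower, beside 16.3% and 11.6% of all genes. Among IgA-led cells outside the cycle only 2 of 12 survival genes were higher and 2 lower, and 1 of 11 homing genes was higher and 2 lower, beside 17.1% and 10.7%. Bcl2 was at 2.78 against 0.729, Cd38, a surface enzyme that consumes NAD, at 2.58 against 0.949, the interleukin 6 signal transducer Il6st at 3.87 against 1.66, and Cd28 at 5.06 against 2.44. Among IgA-led cells outside the cycle Il6st was at 4.22 against 2.20 and Cd28 at 3.64 against 2.80, both under 2-fold, while Bcl2 (2.35 against 1.06) and Cd38 (2.93 against 1.09) stayed past it. A fibrosis cell with 19 of 25 G2/M genes detected held 20 of the 51 Cd28 UMIs and had 31.6 per 10000 of T and NK cell genes. Cd38 was also higher in T-gate cells, at 3.01 against 0.851. Tnfrsf17 was lower at 1.79 against 3.96, while its relative Tnfrsf13b was at 2.38 against 2.87. Itgb7 was lower at 1.49 against 3.66, and at 1.64 against 4.70 among IgA-led cells outside the cycle. It was also lower, by less than 2-fold, in T-gate cells (1.29 against 2.37) and B-gate cells (0.692 against 1.08). The integrin Itgb1 was at 3.57 against 1.49, but at 3.28 against 1.73 among IgA-led cells outside the cycle. Ly6c2 was at 6.85 against 14.3 in all, with 43 of 69 fibrosis UMIs in the cell with 19 G2/M genes and 754 of the 1233 normal UMIs in 1 IgG-led cell, and at 3.05 against 3.34 among IgA-led cells outside the cycle. The chemokine receptors Cxcr4 (1.19 against 0.498) and Ccr2 (1.19 against 0.0579) each had 12 fibrosis UMIs, of which 58.3% lay in 1 cell. Cxcr4 was also higher in T-gate cells, at 1.86 against 0.735, and was at 5.88 against 5.12 in B-gate cells.

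RNA of other liver cells also differed between these plasma cells of both libraries. For the counts that follow, 16.5% of all genes were 2-fold higher in fibrosis plasma cells, 16.3% without the macrophage-RNA cells and 9.16% in T-gate cells. All 11 macrophage genes over the floor were 2-fold higher in fibrosis plasma cells, at a summed 70.1 per 10000 against 3.54, and without the macrophage-RNA cells 8 of 8 at 21.0. All 12 were higher in T-gate cells, at 57.0 against 8.34. Per cell the macrophage list ran from 0 to 16.5 in normal and from 12.3 to 266 in fibrosis, with the other 11 fibrosis cells at no more than 33.5. Endothelial genes were higher for 7 of 11, at 32.7 against 14.4, with cells from 0 to 106 and from 6.56 to 157, and for 3 of 9 in T-gate cells. Stellate cell genes were higher for 3 of 5 (12.2 against 5.74) and for 7 of 7 in T-gate cells, and T and NK cell genes for 3 of 3 (7.70 against 2.30). The T and NK sum rested on a few fibrosis cells, at 31.6 and 24.0 against a median of 1.36, and was 5.28 against 4.46 among IgA-led cells outside the cycle, where none of those genes reached the floor. Hepatocyte genes ran from 44.4 to 614 per cell in normal and from 7.87 to 75.1 in fibrosis. The endothelial marker Fcn3 had no UMI in either set, and the stellate marker Des had none in fibrosis. Genes with the largest ratios were led by macrophage genes, such as Fcgr3 (19 against 1 UMI), C1qb (7.92 against 0.313 per 10000) and Tyrobp (6.60 against 0.278). Rgs1, a regulator of chemokine receptors, was at 7.11 against 0.370 with all members and 3.18 without the macrophage-RNA cells, and Lcp2, a signalling adaptor, at 1.32 and 1.29 against 0.139. The part of free RNA in these differences was not tested.

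**Figure D5:**
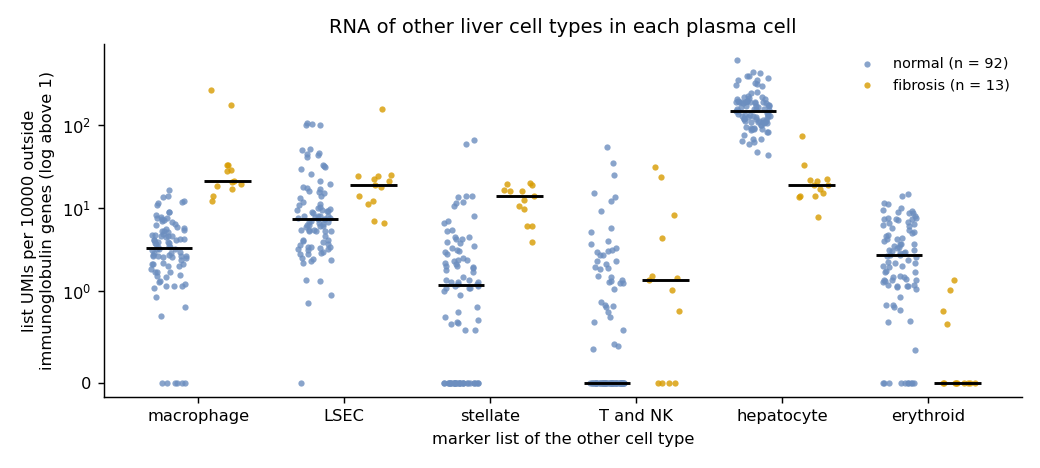
Summed UMIs per 10000 of marker genes of other liver cell types in each plasma cell, normal (92) and fibrosis (13), on an axis that is logarithmic above 1, with lines at the medians. The 2 fibrosis cells with macrophage RNA stand at 266 and 177, and hepatocyte genes are lower in fibrosis cells.

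A set of dividing plasma cells was seen in normal liver. The number of G2/M genes (of 25) detected per cell ran from 0 to 5 in 73 normal cells and from 8 to 25 in 19 (20.7%, 12.9 to 30.4%), with no cell at 6 or 7, and 10 of the 19 held 24 or 25. In fibrosis 2 of 13 cells had 8 or more (15.4%, 1.92 to 45.4%), of which 1 was a macrophage-RNA cell and the other had 19. The limit of 8 genes, above which cells are called dividing here, was set after the values were seen. With 3 or more genes the shares were 42.4 and 92.3%. After thinning every cell to 1000 non-immunoglobulin UMIs, which left out no cell, they were 15.2% (8.58 to 24.2%) and 7.69% (0.195 to 36.0%). The order of the libraries turned, but the thinned fibrosis share was 1 of 13 cells and the intervals overlapped. Thinned shares were 1.55 and 4.89% in B-gate and 4.17 and 8.15% in T-gate cells. At the limit of 8 genes the thinned shares were 7.61 and 0%. The G2/M list summed to 35.6 per 10000 (34.3 to 36.9) in normal and 11.4 (9.71 to 13.4) in fibrosis, or 13.1 without the macrophage-RNA cells. The difference lay in the 19 dividing cells, since the median cell was at 3.69 in normal and 7.08 in fibrosis, and IgA-led cells outside the cycle summed to 3.49 and 7.04. Of 10 G2/M genes over the floor 9 were 2-fold lower in fibrosis, and 8 without the macrophage-RNA cells, beside 11.0% and 11.6% of all genes. They included the proliferation marker Mki67 (1.91 against 6.98; chr7:135689784-135716361, minus strand) and Ube2c, a ubiquitin-conjugating enzyme of mitosis (0.587 against 3.68; chr2:164769898-164778822, plus strand).

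Of the 19 dividing normal cells, 15 were led by Igha, 2 by Ighg2c, 1 by Ighg1 and 1 by Ighg2b. Against the other 73 normal cells, 14.3% of 2162 genes were 2-fold higher and 7.54% lower. The split itself fixed the G2/M genes, of which all 23 over the floor were higher, and the S phase genes followed in 10 of 11. The dividing cells had more RNA outside immunoglobulin, with a median of 15270 UMIs against 7449. Immunoglobulin and Jchain took 18.1% of their UMIs against 47.3%. Per 10000 non-immunoglobulin UMIs, heavy-chain constant RNA was at 700 against 2715, and light-chain constant RNA at 1411 against 4957.

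The secretory genes of dividing cells were close to those of the others, at a summed 709 against 765 per 10000. None of 79 was 2-fold higher and 5 were lower, beside 14.3% and 7.54% of all genes. The 5 included Herpud1 (5.08 against 11.7), Edem2 (3.59 against 7.33) and Ero1lb (0.873 against 1.93). Immediate early genes were lower for 6 of 10, at 28.2 against 62.7. Slpi was at 5.21 against 45.1, with 83.2% of the UMIs of dividing cells in 1 cell, and Prg2, a granule protein, was at 0.0324 against 1.31. Endothelial genes were lower for 8 of 8 and hepatocyte genes for 5 of 12 in the dividing cells, and the part of free RNA and of UMI total in this was not tested.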

How the data were processed

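Single-cell RNA was measured in 1 normal and 1 fibrosis library. The deposited values are raw UMI counts per gene and cell; per the submitters' processing notes the authors used Cell Ranger 3.0.1 and mm10, and a library's table leaves out genes it did not detect (19219 genes were in both). The number of columns of other samples was 0. The methods name Scrublet for doublets; rerun here it marked 1 cell in each library, so that its calls were not used.

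The members and lists were chosen with earlier results of these data known. Counts were summed over cells and divided by UMIs outside immunoglobulin genes and Jchain; immunoglobulin genes were divided by all UMIs. With 1 library per condition no test was run: intervals are exact 95% Poisson (sums, ratios) or Clopper-Pearson (shares). A gene was called at a ratio of at least 2 or at most 0.5, with at least 1 UMI per 10000 in either set; 0 UMIs were replaced by a floor of 3. B-gate and T-gate cells needed 3 UMIs of Cd79a and Cd79b or of the Cd3 genes and under 20 of Jchain.

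Named were genes of the lists, and the 12 largest and 12 smallest ratios between the livers among genes found in at least 20% of cells on the higher side, with no cell over 50% of the UMIs and a log2 ratio at least 1 beyond that of the T-gate and B-gate cells. Genes of the isotype, dividing and IgA-led comparisons were named by a like rule added after values were seen. Gene positions are from GENCODE on GRCm38 and promoters from RefSeq. Python 3.11.15, numpy 2.4.6, scipy 1.17.1, pandas 2.3.3, scanpy 1.11.5 and matplotlib 3.10.9 were used, and the count summaries were tested on simulated data. Alternatives covered the cell limits, doublet scores, denominators, floors and thinning. Some items are not reported here.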

Additional observations from a re-analysis of the deposited data

How the results depend on the processing

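Of 119 recomputed values over 18 settings, 86 stayed within the counting interval or within 1.5 times of a count and 33 did not. Some of the 86 could not move, so the tally overstates stability. Jchain limits of 10 and 50 UMIs chose the same cells as the rule, and the macrophage limit removed no normal cell. The order of the libraries turned for the share of cells with 3 G2/M genes (higher in fibrosis as counted, higher in normal thinned or at 8 genes). The turned shares rested on 1 fibrosis cell (thinned) and 2 (8 genes), and their intervals overlapped those of normal. The balance of genes higher and lower in fibrosis turned over all UMIs and at a floor of 3. The share of plasma cells was 2.75% in normal and 0.587% in fibrosis under 5% mitochondrial UMIs (1853 and 1705 cells kept), and 0.723% and 0% without cells over 10 per 10000 of macrophage, T and NK or LSEC genes, which left 54 normal and no fibrosis cell, so no other fibrosis value was obtained there. IgA led in 100% of fibrosis cells under 5% mitochondrial UMIs and without the macrophage-RNA cells. With 10 UMIs of the leading variable gene, 4 normal cells shared a pair instead of 25. The secretory ratio of 0.746 became 0.817 with 10 Mzb1 UMIs, 0.782 under 5% mitochondrial UMIs, 0.772 without the top 5% of doublet scores, 0.849 without macrophage RNA, 0.885 for IgA-led cells outside the cycle, 0.621 over all UMIs, 0.833 per cell and 0.819 as a mean over cells, and 26 secretory genes were lower over all UMIs. Over all UMIs 102 genes were higher and 232 lower of 1175 (median log2 −0.38), in place of 391 and 260 of 2369. A floor of 3 per 10000 gave 77 higher and 86 lower of 579 (median log2 −0.14), and a floor of 0.3 gave 1253 and 813. The G2/M sum in normal was 38.7 with 10 Mzb1 UMIs, 25.5 under 5% mitochondrial UMIs, 46.7 without cells holding other types' RNA, 21.9 over all UMIs and 21.2 as a mean over cells; in fibrosis it was 14.3 with 10 Mzb1 UMIs and 5.86 over all UMIs. The share with 3 G2/M genes in normal was 55.6% without cells holding other types' RNA, 15.2% thinned and 20.7% at 8 genes, and in fibrosis 7.69% thinned and 15.4% at 8 genes. The cause of these shifts was not tested. The settings for macrophage-RNA cells, IgA-led cells outside the cycle and 8 genes were chosen after seeing the data.

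No paired analysis was possible because each condition had 1 library. The 13 fibrosis cells limit every fibrosis share, and genes with few UMIs in them have counting intervals wider than 2-fold.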
